A study of Caenorhabditis elegans with 14 samples.

Results

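The ceh genes of C. elegans (named for C. elegans homeobox) were followed as a group through starvation and refeeding of first-stage larvae. They were taken by name: every gene model whose public name was ceh- and a number, apart from the Hox gene ceh-13, which gave 39 of the 20314 gene models with coordinates and densities. Homeobox genes encode transcription factors that bind DNA through a homeodomain, a compact fold of helices. Most choose and maintain the identity of particular cells, above all of neurons, and many act in a handful of cells of the larva. They fall into classes by additional domains: CUT factors carry cut repeats, POU factors a POU-specific domain, sine oculis-type factors a domain named after the fly gene sine oculis, and PBC factors are the partners of Hox proteins. RNA polymerase II transcribes them, and polymerase that has loaded at a start site may wait there before it enters the gene.

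Polymerase was measured by ChIP-seq: chromatin is fixed and sheared, the fragments that an antibody to the polymerase pulls down are sequenced, and the read density over a gene reflects how much polymerase sat there. All samples were whole larvae of the wild-type N2 strain that had hatched in medium without food and so stopped in L1 arrest. Of the 14 samples, 4 were recovery ChIP samples (12 hr of arrest, then 1 hr with HB101 bacteria as food), 4 were ChIP samples of 12 hr arrest, 2 were S2 ChIP samples of 6 hr arrest and 4 were input chromatin. In each of the recovery and 12 hr arrest states S2 was used for 1 sample, 4H8 for 2 and 8WG16 for 1. Each antibody is directed to the repeated tail of the polymerase's largest subunit. S2 binds the tail when it carries phosphate on its second serine, the form found on elongating polymerase, and 8WG16 binds mostly the tail without phosphate. Densities stood in 9 ChIP columns, called libraries here, with a single column for 6 hr arrest and a single column for input. The values were read densities in RPKM (reads per kilobase, scaled to the size of the library) over the gene model, called gene density, and over a 200 bp window across the most upstream start site, called start-window density.

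Depth recovered from the values lay between 1322000 and 5863000 reads in the ChIP libraries and was 11905000 reads for the input. A window with 3 reads, taken as the limit of detection, stood for 2.56 to 11.35 RPKM, so that many ceh windows lay near what a few reads give. The median gene density over all genes was 7.96 RPKM in recovery and 6.56 RPKM in 12 hr arrest, against 10.96 RPKM in the input. Body wall muscle markers, which larvae transcribe strongly, had a median of 59.67 RPKM in recovery and 57.91 RPKM in arrest. Ribosomal protein genes rose in gene density in 78 of the 78 tested, and all 80 had a median of 174.0 RPKM in recovery and 48.6 RPKM in arrest. These libraries were made from whole animals, so a change in the number of cells using a gene and a change in polymerase per cell cannot be told apart.

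The median gene density of the ceh genes lay below that of the input, as did that of all genes. It was 9.42 RPKM in recovery, 7.28 RPKM in 12 hr arrest and 11.22 RPKM in the input. Of the 39, 16 (41.0%) averaged at least 10 RPKM over the 8 libraries of the recovery and 12 hr arrest states, beside 35.5% of all genes, and 13 (33.3%) averaged above their own input, beside 26.2% of all genes. A total of 4 of 39 had all 8 libraries above their input, beside 2018 of all 20314 genes, and 13 had all 8 below it, beside 9981 of all genes. In the authors' deposited fold enrichment over input, 3 genes (ceh-38, ceh-20 and ceh-33) passed 2-fold over the gene model in any of the 8 libraries, which is 7.7% of the group beside 12.1% of all genes. No ceh gene passed 2-fold in all 8 libraries.

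The 12 genes with the highest mean gene density were ceh-38 (24.79 RPKM), ceh-21 (22.85), ceh-9 (21.73), ceh-20 (21.09), ceh-33 (17.20), ceh-39 (16.68), ceh-43 (15.99), ceh-22 (15.61), ceh-34 (14.20), ceh-27 (13.73), ceh-44 (13.26) and ceh-32 (12.89). Neighbours in this order were closer than their spread between libraries, which for ceh-38 ran over 17.52 to 31.67 RPKM and for ceh-21 over 16.21 to 27.58 RPKM. A high density did not always exceed the input: ceh-9, an NK-type homeobox gene, and the CUT genes ceh-21 and ceh-39 had inputs of 24.03, 23.10 and 21.42 RPKM, above their own ChIP means. The input of ceh-38 was 13.18 RPKM, that of ceh-20 11.07 RPKM and that of ceh-33 9.20 RPKM, so these genes stood above it. At the low end, ceh-12, a motor neuron factor, averaged 2.17 RPKM with an input of 5.94 RPKM.

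**Figure D1:**
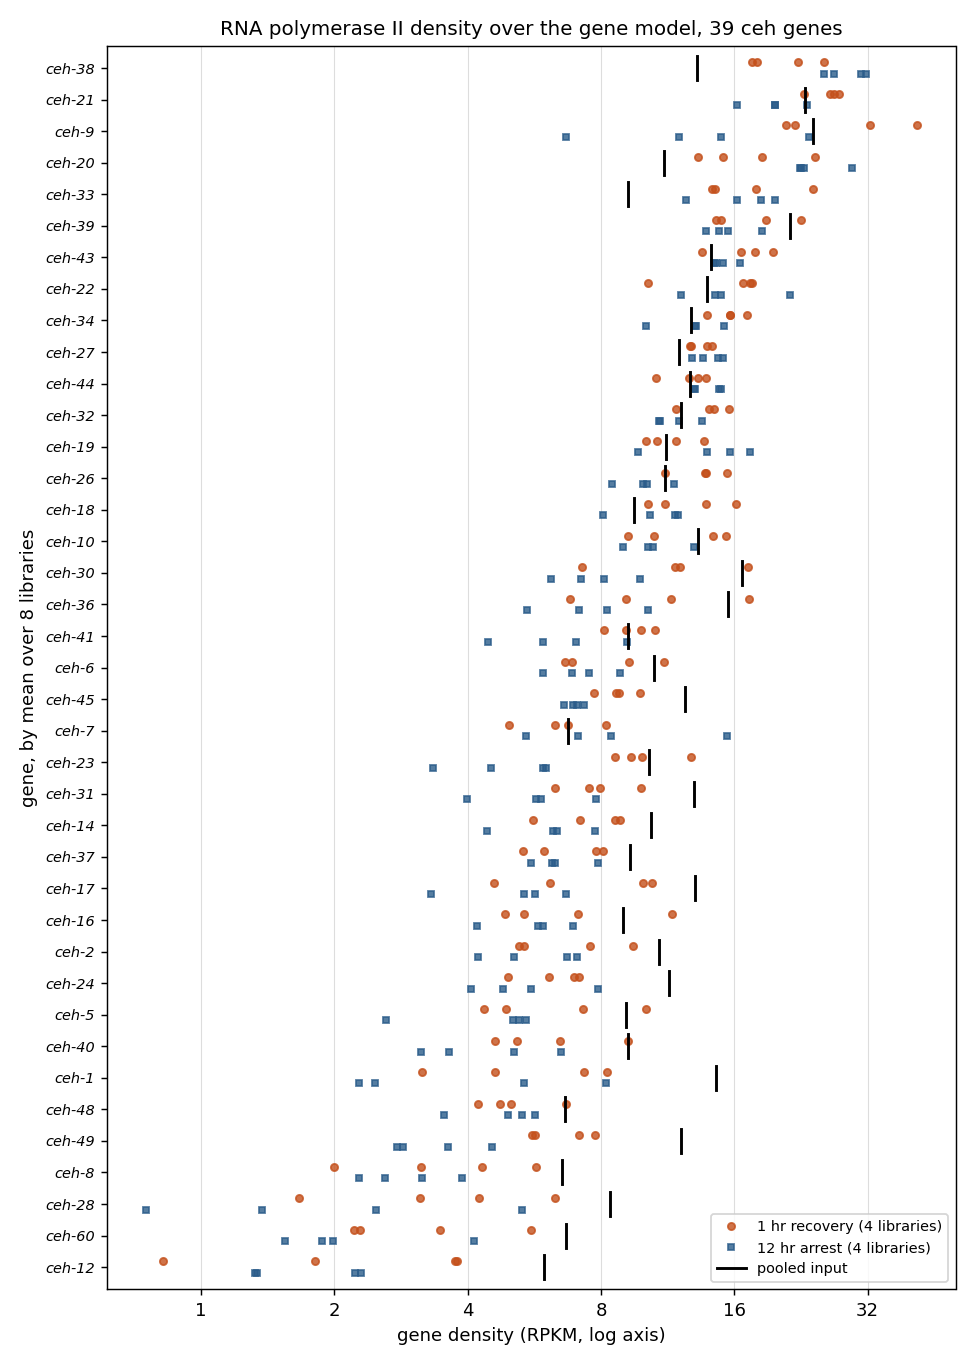
Gene density in RPKM (log axis) of the 39 ceh genes, ordered by their mean over 8 libraries, with recovery libraries as circles, 12 hr arrest libraries as squares and the pooled input as a bar. ceh-38, ceh-20 and ceh-33 lie to the right of their input, and the libraries of the lower genes lie mostly to its left.

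At start sites the order was different and steeper. The highest mean was that of ceh-38, a ONECUT-type CUT factor, at 173.95 RPKM, above 99.2% of all genes. The sine oculis-type genes ceh-33 (66.03 RPKM) and ceh-34 (59.09 RPKM) followed, at the 96.9 and 96.3 percentiles. Next came ceh-45 (29.23 RPKM), ceh-36 (26.00), ceh-30 (24.45), ceh-6 (23.36), ceh-22 (22.10), ceh-10 (18.65), ceh-39 (15.79), ceh-32 (14.78) and ceh-31 (14.43). A start-window mean of at least 10 RPKM was reached by 19 of the 39 genes (48.7%), beside 33.5% of all genes. In the authors' deposited enrichment 8 of the 39 passed 2-fold at the start in any of the 8 libraries (20.5%, beside 19.7% of all genes). Of ceh-45, ceh-36 and ceh-30 the input was 32.76, 39.06 and 38.64 RPKM, each above the mean of the 8 libraries, so these windows were rich in reads without an antibody too. For ceh-38 the input window had 33.60 RPKM, for ceh-33 25.95 RPKM and for ceh-34 42.42 RPKM.

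The genes were spread unevenly over the genome. There were 13 on the X chromosome, 8 on I, 7 on III, 7 on V, 2 on II and 2 on IV, and the X share was 33.3%, beside 14.0% of all genes. A mean gene density of at least 10 RPKM was found for 3 of the 13 X-linked genes and 13 of the 26 autosomal ones. Among all genes the shares were 30.9% on X and 36.3% on autosomes. Several lay side by side: ceh-34 and ceh-33 on V were 3656 bp apart, and on X ceh-41, ceh-21 and ceh-39 stood in a row on the same strand with gaps of 956 and 1194 bp. A gene model of another gene overlapped 5 of the 39, and the reads there cannot be assigned to either gene. ceh-5 lay wholly within ocrl-1 and ceh-10 wholly within polq-1, while ceh-38 shared its last 618 bp with tra-2 on the opposite strand, ceh-34 shared 78 bp and ceh-19 shared 40 bp with a neighbour.

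**Figure D2:**
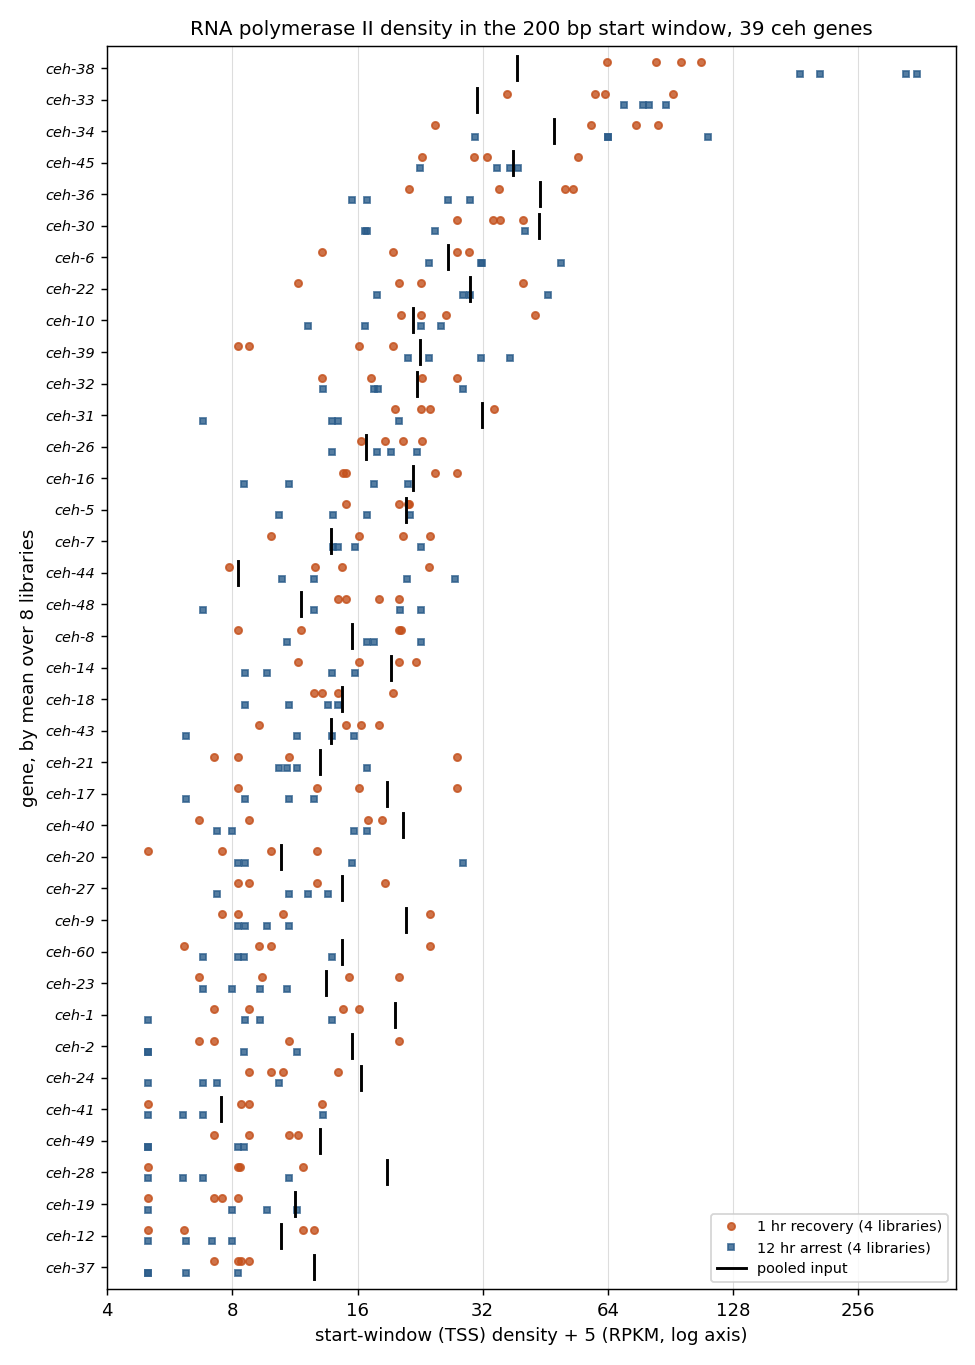
Start-window density of the 39 ceh genes, in RPKM with 5 added (log axis), by library as circles (recovery) and squares (12 hr arrest), with the pooled input as a bar. The recovery libraries of ceh-38 lie at 58.62 to 102.09 RPKM, all below its arrest libraries at 180.25 to 349.96 RPKM. For most genes the libraries of both states mix, and for 12 of the 39 the mean over 8 libraries lies above the input.

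Recovery was compared with 12 hr arrest over 8 libraries with limma on log2(RPKM + 5), with antibody as a term. All adjusted p-values below are from that limma fit across all genes and use the Benjamini-Hochberg adjustment. Log2 changes on this scale are smaller than the true ones for low genes. Genes entered at a mean of at least 10 RPKM, which admitted 16 ceh genes for gene density and 19 for start-window density. A 5' bias, the log2 ratio of start-window density + 5 to gene density + 5, could be tested for 23. Together 26 of the 39 were tested in some measure, and the other 13 lay below the filter throughout.

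The shares of tested ceh genes that changed are set here beside those of all genes. With 16 to 23 ceh genes tested in a measure, the share called in either direction was somewhat below that of all genes. That difference was not tested. In gene density 3 of 16 were higher, where 22.9% of all genes tested were, and 2 of 16 were lower, where 15.1% were. Their median log2 change was 0.12, beside 0.08 for all genes. In start-window density 2 of 19 were higher (background 6.99%) and 2 were lower (background 21.7%), with a median of 0.03 beside -0.15 for all genes. In 5' bias 0 of 23 were higher (background 1.55%) and 3 were lower (background 14.4%), with a median of -0.16 beside -0.20 for all genes. Over these measures 9 ceh genes passed, 5 of them higher in recovery and 4 lower, and at an unadjusted p under 0.05 there were 6 in each measure, where the background was 48.8% in gene density, 37.6% at the start and 27.5% in 5' bias. With no filter on low density, ceh-38 was the one of these 9 that passed, in each of the 3 measures (background 4.44% lower in gene density). The 5 calls in gene density became 0 without either 8WG16 library, 1 without the first 4H8 arrest library, and 2 without either S2 library or the second 4H8 arrest library. The 3 in 5' bias became 1 without either S2 library. Libraries of the states failed to overlap with recovery higher for 0 genes in gene density (background 14.4%) and 0 at the start (background 4.63%). They failed to overlap with recovery lower for ceh-38 in gene density (background 10.3%), for ceh-38 and ceh-39 at the start (background 15.8%), and for these and ceh-6 in 5' bias (background 12.8%). ceh-31 was the gene without overlap and higher in 5' bias (background 1.89%), at 0.68 ± 0.28 (SE, adjusted p = 0.109). The share of calls that were higher depended on scaling: over all genes 1653 were higher and 1090 lower in gene density as deposited, 1239 and 1501 after quantile normalization, and 426 and 1657 after scaling on chemoreceptor genes. At the start the counts were 476 higher and 1480 lower as deposited, and 648 and 1027 after quantile normalization. In 5' bias they were 117 and 1092 as deposited, and 267 and 528 after quantile normalization.

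The largest log2 change among the ceh genes tested, in start-window density, was that of ceh-38, one of the broadly expressed CUT factors that, with others of its class, promote genes used by all neurons. Its gene model lies on chromosome II from 6951579 to 6955334 on the plus strand (WS190). The start window of ceh-38 had 58.62 RPKM with S2, 91.12 and 78.46 RPKM with 4H8, and 102.09 RPKM with 8WG16 in recovery. The same window had, in 12 hr arrest, 180.25 RPKM with S2, 349.96 and 202.44 RPKM with 4H8, and 328.68 RPKM with 8WG16. All 4 recovery libraries lay below all 4 arrest libraries. These are 27 to 92 reads per window in recovery and 111 to 196 reads in arrest. The log2 change of start-window density was -1.59 ± 0.24 (SE, adjusted p = 9.36e-07), lower in 4 of 4 antibody pairs.

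Over the whole gene model ceh-38 was lower too, at 25.50 RPKM with S2, 22.25 and 18.03 RPKM with 4H8, and 17.52 RPKM with 8WG16 in recovery. Its gene densities in 12 hr arrest were 30.86 RPKM with S2, 31.67 and 26.90 RPKM with 4H8, and 25.55 RPKM with 8WG16, so the states just failed to overlap. The log2 change was -0.39 ± 0.10 (SE, adjusted p = 0.0199). It lost the threshold without the first 4H8 arrest library (adjusted p = 0.0698) or without either 8WG16 library (adjusted p = 0.0552 in each case). The window counts toward the gene model: with all its reads taken off, the rest of the gene had at least 16.88 RPKM on average in recovery and 15.01 RPKM in arrest. No test was made. These lower bounds also lose the window reads upstream of the gene, and more reads were taken off in arrest. They therefore cannot tell whether the rest of the gene differed between states. The 5' bias of ceh-38 averaged 1.75 in recovery and 2.95 in arrest, a change of -1.20 ± 0.20 (SE, adjusted p = 0.00031) with no overlap between states. Under quantile normalization that change was -0.65 and did not pass (adjusted p = 0.0753). The nearest other start, that of F22D3.6, lies 340 bp away on the opposite strand. Its own window averaged 2.59 RPKM in recovery and 8.10 RPKM in arrest.

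**Figure D3:**
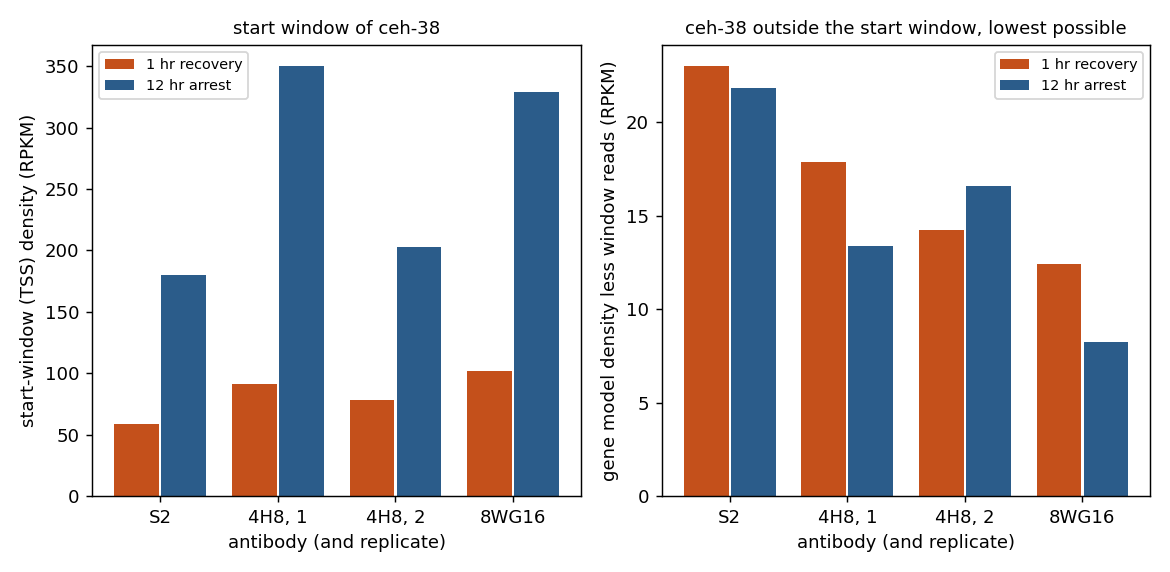
ceh-38 in RPKM for each antibody and replicate, recovery (orange) beside 12 hr arrest (blue). Left, density in the start window, lower in recovery in every pair. Right, gene model density after all reads of the window are taken off, a lower bound. Window reads upstream of the gene are taken off too, and more were taken off in arrest. The bounds therefore do not show which state was higher outside the window.

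ceh-39, also of the CUT class and in C. elegans an X-chromosome signal in sex determination, moved at its start in the same direction. Its start-window density was 3.26 RPKM with S2, 11.11 and 14.50 RPKM with 4H8, and 3.78 RPKM with 8WG16 in recovery. The 12 hr arrest values were 18.73 RPKM with S2, 32.14 and 16.15 RPKM with 4H8, and 26.65 RPKM with 8WG16. The states did not overlap, but the windows held 1 to 17 reads in recovery and 9 to 18 reads in arrest, and the input had 17.64 RPKM. At this start the log2 change came to -1.17 ± 0.31 (SE, adjusted p = 0.00245). Over the gene model ceh-39 averaged 17.72 RPKM in recovery and 15.64 RPKM in arrest, a log2 change of 0.13 ± 0.12 (SE, adjusted p = 0.404). Its 5' bias was lower by a log2 change of -1.30 ± 0.32 (SE, adjusted p = 0.00762). Without the S2 library of either state that bias change was -1.21, with an adjusted p of 0.0503 without the recovery library and 0.0534 without the arrest one.

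Its neighbour ceh-21, of the same row and class, was higher in recovery over its gene model. The start window of ceh-21 averaged 8.54 RPKM in recovery and 7.38 RPKM in arrest and was below the filter. Gene density was 27.58 RPKM with S2, 23.04 and 26.85 RPKM with 4H8, and 26.30 RPKM with 8WG16 in recovery. After 12 hr of arrest it was 23.29 RPKM with S2, 19.78 and 19.76 RPKM with 4H8, and 16.21 RPKM with 8WG16. The lowest recovery value lay just below the highest arrest value. That is a log2 change of 0.33 ± 0.10 (SE, adjusted p = 0.0327), and the input had 23.10 RPKM. It did not pass without any one of 7 of the 8 libraries, the exception being the first 4H8 recovery library, with an adjusted p between 0.0339 and 0.102 over the 8. Scaling on chemoreceptor genes turned it to -0.02, and quantile normalization gave an adjusted p of 0.055. The last of the row, ceh-41, averaged 9.42 RPKM in recovery and 6.62 RPKM in arrest and was below the filter.

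Of the 7 CUT genes, 4 were tested for start-window density and 2 were lower, where 21.7% of all genes tested were. In gene density 4 were tested, with 1 higher (background 22.9%) and 1 lower (background 15.1%). For 5' bias 5 were tested, with 2 lower (background 14.4%). The neuronal CUT gene ceh-48 and the CUX-type ceh-44 did not pass in start-window density, with log2 changes of 0.25 (adjusted p = 0.62) and -0.29 (adjusted p = 0.571). ceh-49 and ceh-41 were below the filter in each measure, and ceh-49 passed in gene density with no filter.

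ceh-20, the Pbx-type partner of Hox proteins, was lower in recovery along its gene model. Its gene density was 24.29 RPKM with S2, 18.44 and 13.26 RPKM with 4H8, and 15.09 RPKM with 8WG16 in recovery. The values of 12 hr arrest were 29.51 RPKM with S2, 22.51 and 22.62 RPKM with 4H8, and 23.02 RPKM with 8WG16. The S2 recovery library overlapped the arrest libraries, and each pair was lower in recovery. Over ceh-20 the log2 change came to -0.39 ± 0.11 (SE, adjusted p = 0.0217). It missed the threshold without either 12 hr arrest 4H8 library or either 8WG16 library, with an adjusted p between 0.0171 and 0.067 over the 8 omissions. With all reads of the start window taken off, the rest of the gene averaged at least 18.33 RPKM in recovery and 24.63 RPKM in arrest. The window itself held 0 to 7 reads in recovery and 2 to 9 reads in arrest and was below the filter. The other PBC genes, ceh-40 and ceh-60, averaged 6.36 and 3.38 RPKM in recovery and 4.59 and 2.39 RPKM in arrest, below the filter.

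Among the POU genes, ceh-6, which acts in the excretory canal and in neurons, had a lower 5' bias in recovery. Its start-window density was 8.14 RPKM with S2, 14.45 and 24.73 RPKM with 4H8, and 22.69 RPKM with 8WG16 in recovery. In 12 hr arrest it was 18.73 RPKM with S2, 26.78 and 26.92 RPKM with 4H8, and 44.42 RPKM with 8WG16. Densities overlapped between states and the start-window change of -0.62 ± 0.27 (SE) had an adjusted p of 0.0812, whereas without the second 4H8 recovery library it was -0.79 with an adjusted p of 0.0481. The 5' bias averaged 0.68 in recovery and 1.43 in arrest without overlap, a change of -0.75 ± 0.24 (SE, adjusted p = 0.0347). That call was lost on leaving out any library other than the second 4H8 library of either state, with an adjusted p between 0.0386 and 0.153 over the 8. It was also lost under quantile normalization, where the change was -0.42 (adjusted p = 0.325), with scaling on chemoreceptor genes (adjusted p = 0.0733) and in the authors' deposited enrichment (adjusted p = 0.0554). ceh-18, which acts in gonadal sheath cells, had a gene density change of 0.19 (adjusted p = 0.147).

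The 5 genes that were higher in recovery came from 4 classes. ceh-9 had a gene density of 20.89 RPKM with S2, 21.97 and 32.46 RPKM with 4H8, and 41.35 RPKM with 8WG16 in recovery. After 12 hr of arrest it had 6.65 RPKM with S2, 12.02 and 23.55 RPKM with 4H8, and 14.95 RPKM with 8WG16. The second 4H8 arrest library overlapped the recovery values, and the input had 24.03 RPKM. The log2 change was 0.86 ± 0.21 (SE, adjusted p = 0.0131), and without the S2 or the 8WG16 library of either state it did not pass (adjusted p between 0.0549 and 0.0583). ceh-26, the Prospero homologue that acts in glia and the excretory canal and is named pros-1 in RefSeq, averaged 13.52 RPKM in recovery and 10.06 RPKM in arrest. Its gene density was 11.15 to 15.37 RPKM in recovery and 8.46 to 11.67 RPKM in arrest, which overlapped slightly, with an input of 11.14 RPKM. That gave a log2 change of 0.30 ± 0.10 (SE, adjusted p = 0.0433), lost on leaving out any library but the second 4H8 recovery library (adjusted p between 0.0242 and 0.127 over the 8). Under quantile normalization it was 0.20 (adjusted p = 0.198).

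At start sites the rises were those of ceh-36 and ceh-31. ceh-36, the Otx-type selector of chemosensory and taste neurons, had 16.28 RPKM with S2, 30.00 and 47.76 RPKM with 4H8, and 45.38 RPKM with 8WG16 in recovery. Its window had, in 12 hr arrest, 10.53 RPKM with S2, 21.43 and 24.77 RPKM with 4H8, and 11.84 RPKM with 8WG16. Only the S2 recovery library fell among the arrest values. The log2 change was 0.82 ± 0.28 (SE, adjusted p = 0.021), and it was 0.56 without the 8WG16 library of recovery (adjusted p = 0.159) or of arrest (adjusted p = 0.153). Without the second 4H8 recovery library it was 0.74 (adjusted p = 0.0872). ceh-31, a BarH-type gene, had 14.66 RPKM with S2, 17.78 and 28.99 RPKM with 4H8, and 18.91 RPKM with 8WG16 in recovery. In 12 hr arrest its window had 9.36 RPKM with S2, 1.79 and 15.08 RPKM with 4H8, and 8.88 RPKM with 8WG16. The lowest recovery value lay just under the highest arrest value. The log2 change was 0.94 ± 0.32 (SE, adjusted p = 0.0231), and without the first 4H8 arrest library, where the window held 1 read, it was 0.56 (adjusted p = 0.208). Without the second 4H8 recovery library it was 0.76 (adjusted p = 0.156). In the authors' deposited enrichment neither start rise passed, with 0.54 for ceh-36 (adjusted p = 0.0901) and 0.61 for ceh-31 (adjusted p = 0.0658).

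Most genes had a positive change in gene density, whether tested or below the filter. Both genes called higher at the start had a start-window mean over the 8 libraries below their input, and the mean gene densities of ceh-9 and ceh-21 over the 8 libraries were also below theirs. Chemoreceptor genes, each used by few cells, had a median gene density of 4.29 RPKM in recovery and 3.04 RPKM in arrest. With no filter, 1201 of the 1339 (89.7%) had a positive change, with a median of 0.19, beside 72.0% of all genes, with a median of 0.14. Of the 23 ceh genes below the gene density filter 22 had a positive change, with a median of 0.20. At the start 67.7% of chemoreceptor genes and 53.5% of all genes had a positive change, and of the 20 ceh genes below that filter 17 did. When libraries were scaled on the chemoreceptor genes, the median log2 change of all genes tested was -0.226 in place of 0.083, ceh-9 had 0.53 (adjusted p = 0.0498), ceh-26 had 0.01 (adjusted p = 0.966) and ceh-36 at its start had 0.61 (adjusted p = 0.145). ceh-31 at its start had 0.80 and still passed (adjusted p = 0.0435).

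**Figure D4:**
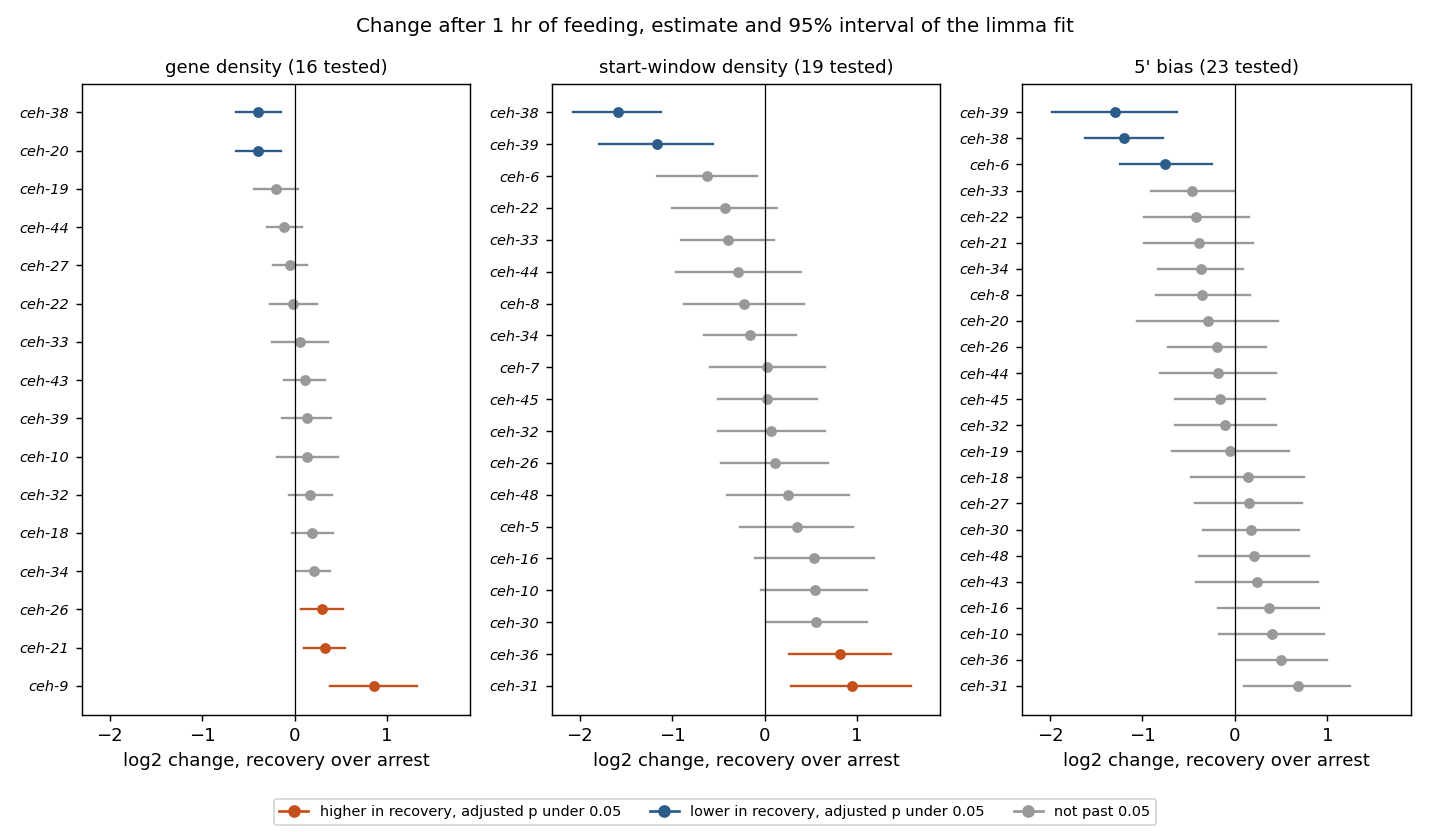
Log2 change, recovery over 12 hr arrest, of each ceh gene tested, with the 95% interval of the limma fit, for gene density (16 genes), start-window density (19) and 5' bias (23). ceh-38 is lower in all 3 panels, and ceh-39 is lower at its start and in 5' bias but not over its gene model.

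Of 34 other homeobox genes, those with other names together with ceh-13, 14 were tested in gene density and 18 at the start. As background for these and for the markers below, 22.9% of all genes tested were higher and 15.1% lower in gene density. Start-window density was higher for 6.99% and lower for 21.7%. In gene density 1 of 14 tested was higher (zag-1, a zinc finger homeobox regulator of neurons, at a log2 change of 0.52 ± 0.09 SE, adjusted p = 0.00331) and 2 were lower, the Hox genes ceh-13 (-0.27, adjusted p = 0.0244) and lin-39 (-0.23, adjusted p = 0.048). At the start 1 of 18 was higher, the caudal-type gene pal-1 (1.34 ± 0.37 SE, adjusted p = 0.00392), and 0 were lower. Of the markers used by all neurons, 4 of 10 tested were lower at the start, as were 2 of 5 body wall muscle markers, beside 21.7% of all genes. Those of neurons were egl-21 (-1.05, adjusted p = 0.00191), unc-18 (-1.02, adjusted p = 0.00696), ric-19 (-0.99, adjusted p = 0.00207) and ida-1 (-0.68, adjusted p = 0.0373). In gene density 1 of 10 neuronal markers tested was higher and 1 lower. Body wall muscle markers had 0 of 7 higher and 2 lower in gene density, pharynx markers 0 of 4 higher and 1 lower, hypodermis markers 1 of 7 higher, intestine markers 3 of 5 higher and germline markers 3 of 4 higher. At the start 1 of 3 intestine markers was higher, and 0 of 5 hypodermis, 0 of 3 pharynx and 0 of 2 germline markers passed. The part of cell makeup in the changes of ceh genes was not tested.

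None of the 3 sine oculis-type genes passed for feeding at the start. Over the 8 libraries ceh-33 and ceh-34 averaged above their input there and ceh-32 below it. ceh-33 had 86.96 RPKM with S2, 58.18 and 54.47 RPKM with 4H8, and 31.68 RPKM with 8WG16 in recovery. The window in 12 hr arrest had 83.34 RPKM with S2, 72.92 and 75.55 RPKM with 4H8, and 65.11 RPKM with 8WG16. The change was -0.40 ± 0.25 (SE, adjusted p = 0.239), with a 95% interval from -0.90 to 0.10. ceh-34, of the same type and the selector of pharyngeal neurons, had 19.54 RPKM with S2, 53.34 and 69.93 RPKM with 4H8, and 79.41 RPKM with 8WG16 in recovery. In 12 hr arrest its window had 25.75 RPKM with S2, 58.92 and 59.23 RPKM with 4H8, and 106.60 RPKM with 8WG16. The change was -0.16 ± 0.25 (SE, adjusted p = 0.683), with an interval from -0.66 to 0.34. Both S2 values of ceh-34 were below its input of 42.42 RPKM. These adjoining genes were ordered by antibody in opposite ways: S2 was the highest of the 4 libraries at ceh-33 and the lowest at ceh-34 in each state. ceh-32, which acts in the head, averaged 15.24 RPKM at its start in recovery and 14.32 RPKM in arrest, with an input of 17.22 RPKM (adjusted p = 0.891).

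The 5' bias of S2 was compared with that of 4H8 over both states, to set elongating polymerase beside polymerase of any form at the start. No ceh gene passed in limma (0 of 23), and 5 had an unadjusted p under 0.05. Over all genes 0 were higher and 4 lower, or 0.0529% in either direction, and 668 (8.83%) had an unadjusted p under 0.05. The 5' bias of ceh-34 averaged 0.70 with S2 and 1.75 with 4H8, a difference of -1.05 ± 0.27 (SE, adjusted p = 0.221). At ceh-33 it averaged 1.79 with S2 and 1.79 with 4H8, a difference of 0.00 with a 95% interval from -0.55 to 0.55. The difference at ceh-38 was -0.70 ± 0.25 (SE, adjusted p = 0.431), and that at ceh-44 was 1.01 ± 0.37 (SE, adjusted p = 0.448). Of the 23 genes 17 had a negative difference, beside 4300 of all 7561, with a median of -0.29 beside -0.07 for all genes. A negative difference was also found for 16 of 24 other homeobox genes, 12 of 12 markers used by all neurons and 36 of 70 chemoreceptor genes. Between 8WG16 and 4H8 no ceh gene passed either, with 3 of 23 at an unadjusted p under 0.05, where 18.1% of all genes were, and 0.754% of all genes called, and the largest difference was that of ceh-21, at 1.21 ± 0.35 (SE, adjusted p = 0.087). The response of gene density to feeding did not pass as different between S2 and 4H8 for any of 16 ceh genes, none of which had an unadjusted p under 0.05, where 0.0276% of all genes passed.

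Time in arrest was followed with S2 alone, as 1 library for 12 hr and 1 for 6 hr. The replicated 4H8 libraries gave the fit 2 residual degrees of freedom for the spread of each gene. To these limma added a spread estimated over all genes, which counted for 4.26 degrees of freedom in gene density. At the start it counted for 43.78, so the spread there came mostly from the trend over all genes. The p-values assume that S2 libraries vary as 4H8 libraries do, and a difference between these 2 libraries has no replicate check of its own. In gene density 0 of 16 ceh genes passed in limma, with 0 at an unadjusted p under 0.05, as did 0 of 7240 genes in all, of which 500 had an unadjusted p under 0.05. At start sites, a comparison added after the values were seen, 2 of 20 ceh genes passed as higher in the 12 hr library and 0 as lower, where 3.49% of all genes were higher and 0.118% lower. These were the start windows of ceh-34 and ceh-38. ceh-34 had 25.75 RPKM at 12 hr and 3.86 RPKM at 6 hr, which are 22 and 2 reads, a log2 change of 1.80 ± 0.50 (SE, adjusted p = 0.0319). ceh-38 had 180.25 RPKM at 12 hr and 54.01 RPKM at 6 hr, or 154 and 28 reads, a log2 change of 1.65 ± 0.48 (SE, adjusted p = 0.0403).

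Both calls rested on the settings. The count of 2 became 0 with quantile normalization, with scaling on chemoreceptor genes or in the authors' deposited enrichment, and 0 without the second 4H8 recovery library. Without the first 4H8 recovery library ceh-34 had an adjusted p of 0.0507, and without the second 12 hr arrest 4H8 library ceh-38 had one of 0.052. In S2, the window of ceh-38 thus had 54.01 RPKM at 6 hr, 180.25 RPKM at 12 hr and 58.62 RPKM in recovery, and was highest at 12 hr. In the same antibody ceh-33, which adjoins ceh-34, had 105.02 RPKM at 6 hr, 83.34 RPKM at 12 hr and 86.96 RPKM in recovery. Its change between 12 hr and 6 hr was -0.32 ± 0.49 (SE, adjusted p = 0.88), while the difference between ceh-34 and ceh-33 was not tested.

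**Figure D5:**
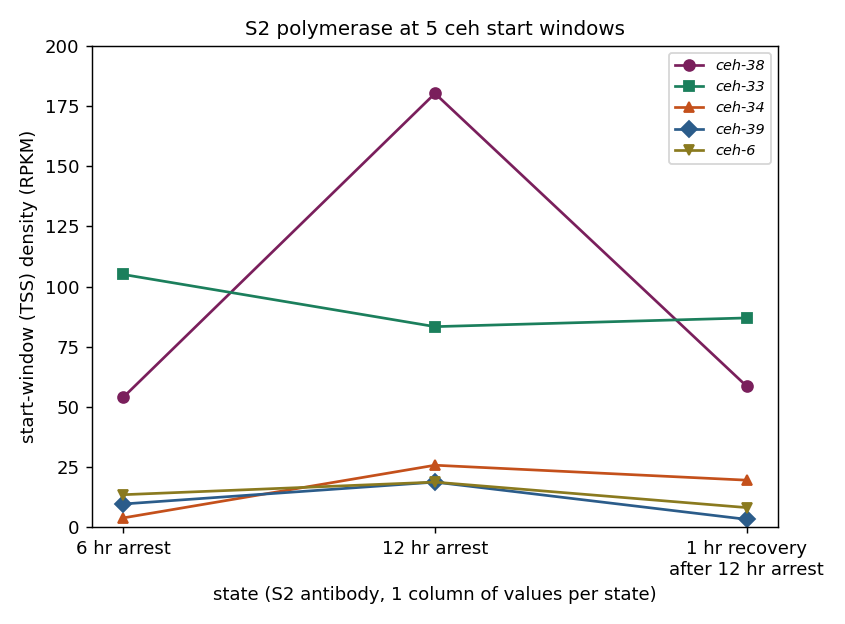
Start-window density in RPKM with the S2 antibody at 6 hr arrest, 12 hr arrest and 1 hr recovery for 5 ceh genes, 1 point per state. ceh-38 is highest at 12 hr (180.25 RPKM), ceh-33 stays between 83.34 and 105.02 RPKM, and ceh-34 has 3.86 RPKM at 6 hr.

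The 13 ceh genes tested in no measure averaged under 10 RPKM over the 8 libraries, both over the gene model and at the start. They include ceh-40 and ceh-60, the LIM gene ceh-14 of sensory neurons and interneurons, the motor neuron gene ceh-12 and the pharyngeal neuron gene ceh-28. ceh-37, an Otx-type gene, had the lowest start-window mean of the group, at 3.17 RPKM in recovery and 1.10 RPKM in arrest. With no filter on low density, 2 of these 13 passed as higher in gene density, where 7.49% of all 20314 genes did, and they are named after their values were seen. ceh-23, which acts in interneurons, had 8.58 RPKM with S2, 9.37 and 9.89 RPKM with 4H8, and 12.76 RPKM with 8WG16 in recovery. In 12 hr arrest it had 3.33 RPKM with S2, 4.52 and 6.02 RPKM with 4H8, and 5.93 RPKM with 8WG16. All its recovery libraries lay above all its arrest libraries, as for 9.66% of all genes, and the input had 10.27 RPKM. The log2 change of ceh-23 was 0.61 ± 0.10 (SE, adjusted p = 0.0137). The CUT gene ceh-49 had 5.60 to 7.76 RPKM in recovery and 2.77 to 4.54 RPKM in arrest, with an input of 12.11 RPKM and a log2 change of 0.45 ± 0.11 (SE, adjusted p = 0.0447).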

How the data were processed

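The authors deposited gene and start-window densities in RPKM and a ratio of each density to that of the input, with the median input used for genes whose input lay below it, per the series' design text. Coordinates are WS190. The aligner is not given in the sources used here. Per the labels' titles the 6 hr S2 column is named as replicate 1; whether it holds both samples is not stated. The single input column is taken as pooled. The design text calls the 4H8 pairs biological replicates, but separate cultures are not stated. The p-values thus measure the spread between these libraries, which may be technical, joined with a spread that limma estimates over all genes. In the recovery fits that shared spread counted for 4.34 degrees of freedom in gene density, 43.77 at the start and 16.27 in 5' bias. The libraries of each gene counted for 4.

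Depth came from start-window steps of 1 read, and 89.4% to 90.0% of start-window values were whole reads within 0.1. A limit of 3 reads allows for counting error and nothing else. Tests ran on log2(RPKM + 5), for genes averaging at least 10 RPKM over the libraries of a fit. For 5' bias, gene models of at least 1000 bp entered where either density reached 10 RPKM. limma 3.58.1 in R 4.3.3 (lmFit, eBayes with trend, two-sided) gave p-values, adjusted over all genes tested at 0.05. Recovery and antibody comparisons used 8 libraries. The S2 comparison over time and the S2 minus 4H8 contrast used 9 in 7 groups. Such a fit takes the spread of a lone library from the 4H8 replicates and from the trend over all genes. The recovery comparisons in the 3 measures were tested on simulated data. The antibody comparisons and the fits over 9 libraries were not. Tables were made with pandas 2.3.3 and numpy 2.4.6 in Python 3.11.15, and plots with matplotlib 3.10.9.

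The labels' run codes are shared by the recovery and 12 hr arrest library of each antibody and replicate number. Deviations of same-numbered 4H8 libraries correlated at 0.35 in gene density, 0.24 in start-window density and 0.17 in 5' bias over 2 pairs.

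Members, classes and lists were chosen with earlier results of these data known. Full statistics were given for members past the threshold with one direction in all 4 pairs, and levels for the 12 highest; other members are named to describe their class. All 39 had an entry in the RefSeq gene table, used for names only. No sequence was used here.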

Additional observations from a re-analysis of the deposited data

How the results depend on the processing

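Of the alternatives tried, the start-window fall of ceh-38 passed in every one, between -1.75 and -1.44 when each library was left out. That of ceh-39 passed in all that tested it but the fit with no filter (adjusted p = 0.117). A minimum of 20 RPKM left ceh-39 out. The bias change of ceh-38 was -0.65 under quantile normalization (adjusted p = 0.0753), and the gene density rise of ceh-21 turned to -0.02 with scaling on chemoreceptor genes (adjusted p = 0.964). Counts of ceh genes called: with no filter on low density, 3 in gene density (ceh-38 of the 5 called with the filter, and ceh-23 and ceh-49, which the filter leaves out), 1 in start-window density, 1 in 5' bias and 0 for S2 start windows at 12 hr over 6 hr. Quantile normalization gave 3 in gene density and 0 for the S2 start windows. A minimum of 20 RPKM gave 2 in start-window density, and the authors' deposited enrichment gave 2 there and 0 for the S2 start windows. A pseudocount of 20 RPKM gave 1 for 8WG16 against 4H8 in 5' bias, where ceh-21 was the largest difference, and 0 for the S2 start windows. Scaling on chemoreceptor genes gave 0 for the S2 start windows. The cause of these differences in count was not tested. Leaving out each library in turn gave 0 to 4 calls in gene density, with 0 without either 8WG16 library, 3 to 6 in start-window density, 1 to 3 in 5' bias, 0 to 1 for 8WG16 against 4H8 and 0 to 2 for the S2 start windows. It gave 0 for S2 against 4H8 and 0 for the difference in response.

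With the replicate number as a block the counts were 5 in gene density, 4 in start-window density and 3 in 5' bias, with 0 for the S2 minus 4H8 response, and the block changed no call of a ceh gene. No paired analysis was possible for 12 hr against 6 hr or between antibodies because those groups share fewer than 2 numbers or no run code. Quantile normalization gave 2 higher and 1 lower in 5' bias in place of 0 and 3.

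A start window of 3 reads stood for 2.56 RPKM in the deepest ChIP library and 11.35 RPKM in the shallowest. The part of depth in the low values of the group was not tested. In the fits over 9 libraries, the spread of the lone S2 and 8WG16 libraries is taken from 4H8 and from the trend over all genes.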
